A study of Homo sapiens with 6 samples.

Results

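The 9 genes described here are regulators of the Hippo pathway, grouped as junction and LIM regulators. They are FRMD6, AJUBA, WTIP, LIMD1, DLG5, FAT4, DCHS1, FJX1 and SHANK2, and they were taken by gene symbol from a table of 58735 genes. All 9 had a row, and 8 of them passed the filter on low counts, as did 15935 genes in all. The gene that failed the filter was FAT4.

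The Hippo pathway is a kinase cascade in which the MST kinases activate the LATS kinases, and LATS kinases phosphorylate the coactivators YAP and TAZ and so keep them out of the nucleus. Cell contact, polarity complexes and the cytoskeleton feed into this cascade through proteins at the membrane. In skeletal muscle and in rhabdomyosarcoma, a tumour of the muscle lineage, YAP is known for favouring proliferation over differentiation.

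RNA was measured by poly(A) RNA sequencing in RD cells, an established human line of embryonal rhabdomyosarcoma (ERMS). Control cells carried a scrambled shRNA and TAK1 knockdown cells an shRNA against TAK1, the kinase encoded by MAP3K7, both delivered by lentivirus (n = 3 per group). The comparison asks which transcripts differ when TAK1 is reduced. It rests on 1 cell line and 1 shRNA sequence, and the time between transduction and RNA extraction is not given in the sources used here. The study describes triplicates without saying how they were kept apart, so the p-values measure the spread between these samples, which may be technical. In bulk RNA, fewer cells with a transcript and less of it per cell cannot be told apart.

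The libraries held between 28839898 and 34469323 counts. MAP3K7 itself fell from 77.3 ± 0.743 to 31.3 ± 2.00 CPM (mean ± SD, n = 3), where CPM is a count scaled to a common library size, a log2 fold change of -1.30. Of 8 skeletal muscle markers, 7 were tested, and their summed level was 2019 to 2043 CPM in control and 1950 to 2066 CPM in TAK1 knockdown cells, while MYF5 had no count in any library. Within that sum, 3 of the 7 were upregulated (MYOD1, MYOG and MYMK, at log2 fold changes of 0.37, 0.27 and 0.98) and CHRNA1 was downregulated (-0.40), with a median of 0.23 over the 7. Of all genes tested, 11.8% were upregulated and 11.3% downregulated, with a median of 0.018. The part of these muscle genes in the members' values was not tested. Of 9 markers of epithelial, endothelial, leukocyte and melanocyte cells, 1 (PMEL) was tested, CDH1, KRT19 and CDH5 were at 0 in all 6 libraries, and the summed level was 2.19 to 2.69 CPM in control and 1.84 to 3.06 CPM in knockdown cells.

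Silencing of TAK1 moved these regulators in both directions. FRMD6 and DCHS1 were downregulated by 1.52-fold and 1.45-fold, and SHANK2, WTIP and FJX1 were upregulated by 1.75-fold, 1.26-fold and 1.24-fold. A gene was called here when the quasi-likelihood test of edgeR gave a p under 0.05 after Benjamini-Hochberg adjustment over all genes tested, and its log2 fold change was at least 0.25 in size. By that rule 3 of the 8 tested members were upregulated, against 11.8% of all genes tested, and 2 were downregulated, against 11.3%. With no threshold on the fold, 4 members were higher (16.1% of all genes) and 3 were lower (17.2%). The CPM values of the groups did not overlap for 7 of the 8, against 43.9% of all genes. The median log2 fold change was 0.17 over the 8 members and 0.018 over all genes, and the median size of the change was 0.32 and 0.19. The study also picked Hippo genes from these same libraries for display, and all members were chosen here with earlier results of these data known. The members' counts and the sizes of their changes are therefore not independent evidence of a change or of its direction.

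**Figure D1:**
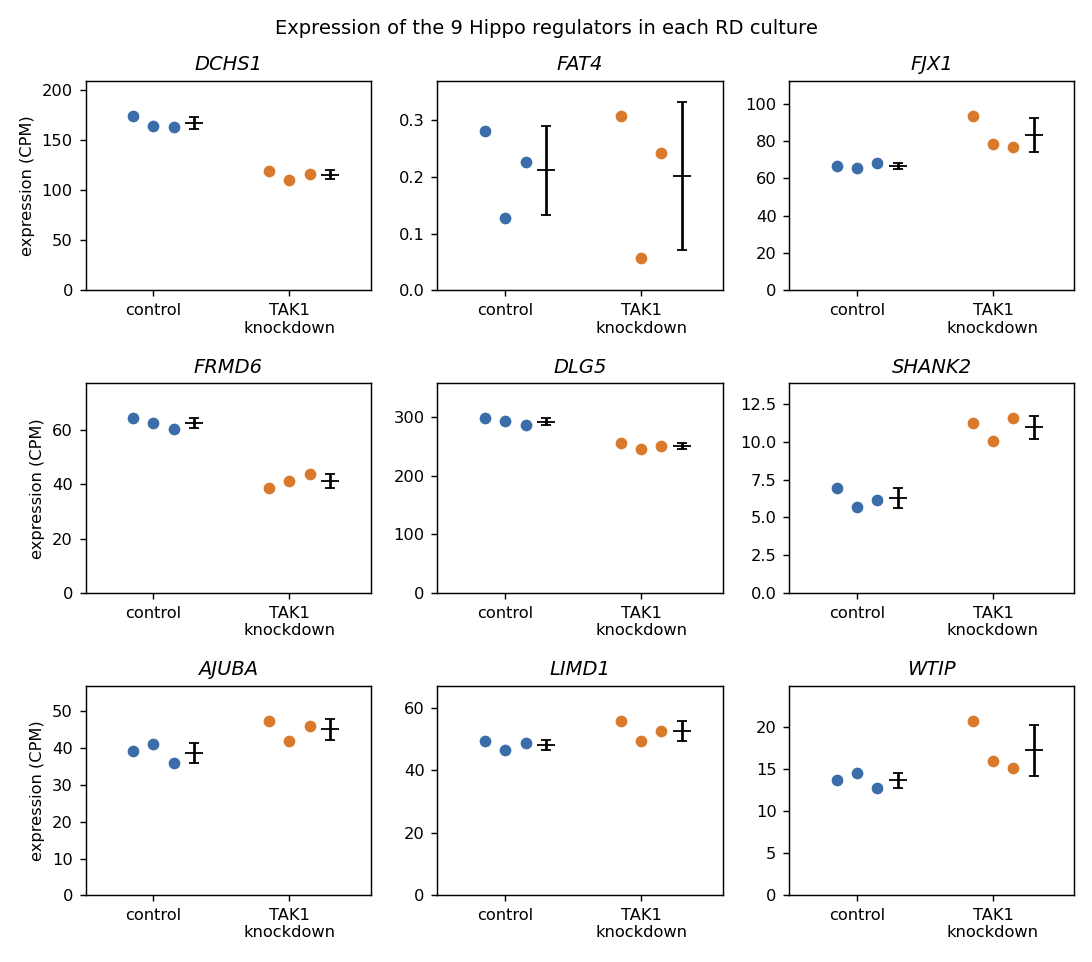
Level of each of the 9 genes in every library, in normalized CPM, with a panel and a vertical axis for each gene. Points are single libraries of control and TAK1 knockdown RD cells, and the black dash and bar give the mean ± SD (n = 3). The groups are separate for 7 genes and overlap for LIMD1 and FAT4.

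Among the upstream activators of the cascade, FRMD6 showed the largest decrease of the members. FRMD6 (chr14:51489100-51730727, plus strand, GRCh38) encodes a FERM domain protein, also called Willin, that is related to Expanded of the fly and promotes Hippo signalling at the membrane. Its level was 64.3, 62.6 and 60.5 CPM in the control libraries and 38.6, 41.0 and 43.9 CPM in the knockdown libraries. Every knockdown library lay below every control library. The mean went from 62.5 ± 1.91 to 41.2 ± 2.66 CPM, with a log2 fold change of -0.60 (SE 0.062, 95% interval -0.73 to -0.47, edgeR adjusted p = 3.81e-08). No exon of FRMD6 overlaps an exon of another annotated gene.

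The promoter window of FRMD6 is shown because the gene had the strongest decrease of the set. It was taken from RefSeq (GRCh38.p14, chr14:51488878-51489157, plus strand) and runs from 250 bases before the annotated start to 30 bases after it. The windows were searched on both strands for GGAATG, the core bound by the TEAD partners of YAP and TAZ. They were also searched for TGANTCA, a loose form of the AP-1 site, with N for any base. Neither motif was present in this window, so no base is in capitals. FRMD6 has 7 annotated starts of coding transcripts, and starts outside this window were not searched.
FRMD6: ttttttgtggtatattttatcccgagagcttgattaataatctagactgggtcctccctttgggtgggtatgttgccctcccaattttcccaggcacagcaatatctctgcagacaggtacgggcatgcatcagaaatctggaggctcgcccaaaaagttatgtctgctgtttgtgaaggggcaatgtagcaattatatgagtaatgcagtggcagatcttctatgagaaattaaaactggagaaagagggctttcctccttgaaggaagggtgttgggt

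DLG5 lay under the fold threshold. DLG5 (chr10:77790791-77926755, minus strand) encodes a scaffold of the membrane-associated guanylate kinase family that takes part in cell polarity and binds MST kinases. It was the most abundant member, at the 96.0th percentile of the levels of all genes tested. Control libraries held 298, 292 and 286 CPM and knockdown libraries 256, 246 and 251 CPM, without overlap. The means were 292 ± 5.57 and 251 ± 5.10 CPM, and the log2 fold change was -0.22 (SE 0.044, 95% interval -0.31 to -0.13, edgeR adjusted p = 0.000336). Of its exonic bases, 17.6% overlap genes on the opposite strand. The setting of strand in the authors' counting is not given in the sources used here, so reads of overlapping genes on opposite strands cannot be told apart. The genes that overlap share 1753 and 99 bases with DLG5, and their counts were not examined. DLG5-AS1, an antisense gene that is not among them, held 37 to 65 counts per library, against 7493 to 9206 for DLG5.

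The atypical cadherins and their kinase formed the next group, in which DCHS1 fell and FJX1 rose. DCHS1 (chr11:6621330-6655809, minus strand) encodes the protocadherin that serves as ligand of FAT4 across cell contacts. Its level was 174, 164 and 163 CPM in control and 119, 110 and 117 CPM in TAK1 knockdown cells. The groups were far apart relative to their spread, with means of 167 ± 6.08 and 115 ± 4.71 CPM. The log2 fold change was -0.53 (SE 0.049, 95% interval -0.64 to -0.43, edgeR adjusted p = 5.79e-09). Of the exonic bases of DCHS1, 10.3% overlap genes on the opposite strand, whose counts were not examined.

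FAT4 (chr4:125314918-125492932, plus strand), which encodes the receptor of DCHS1, was close to the limit of detection. The libraries held 8, 4 and 7 reads in control and 9, 2 and 8 reads in knockdown cells. Both groups summed to 19 reads (exact Poisson 95% interval 11.4 to 29.7), and the ratio of knockdown to control after scaling for depth was 0.930, with an interval of 0.466 to 1.86. These intervals cover counting error only. A change of FAT4 within that interval was not detectable at this depth. The difference between DCHS1 and FAT4 in their change, taken as the log2 ratio of their levels per library, was -0.22 between the group means, and the spread of the ratio reached 1.26 in the knockdown libraries (two-sided exact permutation test, p = 0.8, adjusted over 3 ratios 0.8). With 3 libraries against 3, that test cannot go below 0.1.

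FJX1 (chr11:35618460-35620865, plus strand) is the human relative of the fly gene four-jointed, whose product is a kinase of the Golgi that phosphorylates cadherin domains of Fat and Dachsous. It is also a gene often used as a readout of YAP activity. The control libraries held 66.7, 65.2 and 68.4 CPM and the knockdown libraries 93.4, 78.6 and 76.9 CPM. All knockdown libraries were above all control libraries, and replicate 1 of the knockdown was the highest. The means were 66.8 ± 1.59 and 83.0 ± 9.05 CPM and the log2 fold change was 0.31 (SE 0.064, 95% interval 0.18 to 0.44, edgeR adjusted p = 0.000438). Without replicate 1 of the knockdown the value was 0.22, under the fold threshold, at an edgeR adjusted p of 0.00219.

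The Ajuba family of LIM proteins consists of AJUBA, LIMD1 and WTIP, which bind LATS kinases at junctions under tension and hold them inactive. All 3 had a higher mean in TAK1 knockdown cells, and WTIP was the member of the family that was called. WTIP (chr19:34481758-34512304, plus strand) was at 13.6, 14.5 and 12.8 CPM in control and at 20.7, 15.9 and 15.1 CPM in knockdown libraries. The groups did not overlap, but replicate 1 of the knockdown stood above the others. The means were 13.7 ± 0.882 and 17.2 ± 3.03 CPM, and the log2 fold change was 0.33 (SE 0.11, 95% interval 0.11 to 0.55, edgeR adjusted p = 0.0171). The call was lost without replicate 1 of the knockdown (0.18, edgeR adjusted p = 0.167) and without replicate 3 of the control (0.29, edgeR adjusted p = 0.0863).

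AJUBA (chr14:22971177-22982551, minus strand) was at 39.0, 41.1 and 35.8 CPM in control and at 47.3, 41.9 and 45.9 CPM in TAK1 knockdown cells. The lowest knockdown library was just above the highest control library. The means were 38.7 ± 2.67 and 45.0 ± 2.81 CPM, and the log2 fold change of 0.22 (SE 0.069, 95% interval 0.077 to 0.36, edgeR adjusted p = 0.0156) was under the fold threshold. The adjusted p of AJUBA rose above 0.05 without replicate 3 of the control (log2 fold change 0.17, edgeR adjusted p = 0.125). It also did so without replicate 1 or 3 of the knockdown (0.18 and 0.19, edgeR adjusted p = 0.0528 and 0.0651).

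LIMD1 (chr3:45555394-45686341, plus strand) showed overlapping groups. Control libraries held 49.3, 46.3 and 48.7 CPM and knockdown libraries 55.7, 49.2 and 52.6 CPM. The log2 fold change was 0.12, and its 95% interval ran from -0.0043 to 0.25 (edgeR adjusted p = 0.134). Of the exonic bases of LIMD1, 24.9% overlap LIMD1-AS1 on the opposite strand, whose own row held 1 to 6 counts per library.

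Whether the family members differed in their change was tested with the log2 ratio of their levels in each library. The ratio of AJUBA to LIMD1 was -0.34, -0.17 and -0.44 in control and -0.24, -0.23 and -0.20 in knockdown libraries, a difference of 0.096 (two-sided exact permutation test, p = 0.4, adjusted over 3 ratios 0.6). The ratio of WTIP to LIMD1 was -1.85, -1.67 and -1.93 in control and -1.43, -1.63 and -1.80 in knockdown libraries, a difference of 0.20 (exact p = 0.2, adjusted 0.6). Both ratios overlapped between the groups, and a difference of change among the 3 LIM proteins was not shown. With 3 libraries against 3 the permutation test cannot go below 0.1, so it cannot decide whether they differed. Per kilobase of exon, the sum of the 3 transcripts was 11.5, 11.7 and 10.9 in control and 14.0, 12.2 and 13.1 CPM per kilobase in knockdown cells, a ratio of the means of 1.15.

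The promoter windows of WTIP and of the downstream start of AJUBA are shown because they hold the TEAD motif. Both come from RefSeq (GRCh38.p14) and cover 280 bases, WTIP at chr19:34481508-34481787 on the plus strand and AJUBA at chr14:22976813-22977092 on the minus strand. Capitals mark GGAATG or its reverse complement CATTCC, and positions count from the annotated start as +1.
WTIP: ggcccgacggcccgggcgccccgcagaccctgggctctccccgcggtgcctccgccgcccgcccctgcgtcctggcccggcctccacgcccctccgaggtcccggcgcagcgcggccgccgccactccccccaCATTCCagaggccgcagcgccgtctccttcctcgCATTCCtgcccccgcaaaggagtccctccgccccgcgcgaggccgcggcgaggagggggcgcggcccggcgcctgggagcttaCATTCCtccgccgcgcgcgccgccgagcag
AJUBA: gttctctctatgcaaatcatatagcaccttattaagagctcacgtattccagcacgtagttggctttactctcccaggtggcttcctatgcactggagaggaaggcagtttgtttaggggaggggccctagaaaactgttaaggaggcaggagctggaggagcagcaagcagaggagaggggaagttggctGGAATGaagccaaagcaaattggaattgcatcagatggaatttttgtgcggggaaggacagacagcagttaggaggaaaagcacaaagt
The WTIP window held 3 matches, which begin at -117, -83 and +1, and the AJUBA window held 1 match at -59. Among 15767 windows of genes tested, 11.1% held the motif at least once and 0.0507% (8 windows) at least 3 times. The windows of FRMD6, FJX1 and the upstream start of AJUBA held no match. AJUBA has 6 annotated starts of coding transcripts, and starts outside its windows were not searched. TGANTCA was in none of the 5 windows of members, against 4.99% of the windows of genes tested. A match describes the letters of the window and does not show that a factor binds there.

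SHANK2 showed the largest change in size of the 8 tested members. SHANK2 (chr11:70467854-71252577, minus strand) encodes a scaffold best known from excitatory synapses that has also been described as a Hippo inhibitor in tumour cells. The control libraries held 6.96, 5.68 and 6.16 CPM and the knockdown libraries 11.2, 10.1 and 11.5 CPM. All 3 knockdown libraries were above the controls. The means were 6.27 ± 0.647 and 10.9 ± 0.768 CPM, and the log2 fold change was 0.80 (SE 0.12, 95% interval 0.56 to 1.05, edgeR adjusted p = 6.44e-06). The transcript was of low abundance, with 179 to 381 reads per library, at the 37.2nd percentile of levels among the genes tested.

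**Figure D2:**
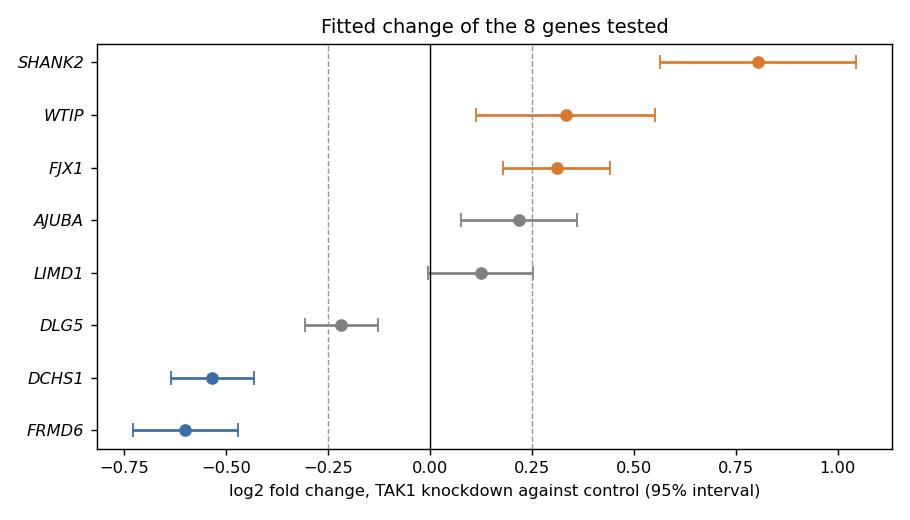
Log2 fold change of the 8 tested genes in TAK1 knockdown against control RD cells, with 95% intervals from the edgeR fit. Orange marks upregulated, blue downregulated and grey uncalled genes, and the values run from -0.60 for FRMD6 to 0.80 for SHANK2.

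The calls of FRMD6, DCHS1 and SHANK2 held in all 14 alternative fits, which changed the normalization, the filter, the test or the replicate block or left out 1 library. Their log2 fold changes ranged from -0.66 to -0.55, from -0.56 to -0.49 and from 0.74 to 0.88. FJX1 was called in 13 of the 14 fits and WTIP in 12. AJUBA was called in 3, with a log2 fold change of 0.27 in each, namely with library size alone and without replicate 2 of either group. DLG5 stayed under the fold threshold in all 14 fits, between -0.23 and -0.17, with an adjusted p of at most 0.00482. Replicate 1 of the knockdown had the highest level among the knockdown libraries for AJUBA, LIMD1, WTIP, FJX1, DLG5 and DCHS1. It was the shallowest library of the series at 28839898 counts, close to replicate 1 of the control at 29125436. The part of the depth of the knockdown library in these values was not tested.

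**Figure D3:**
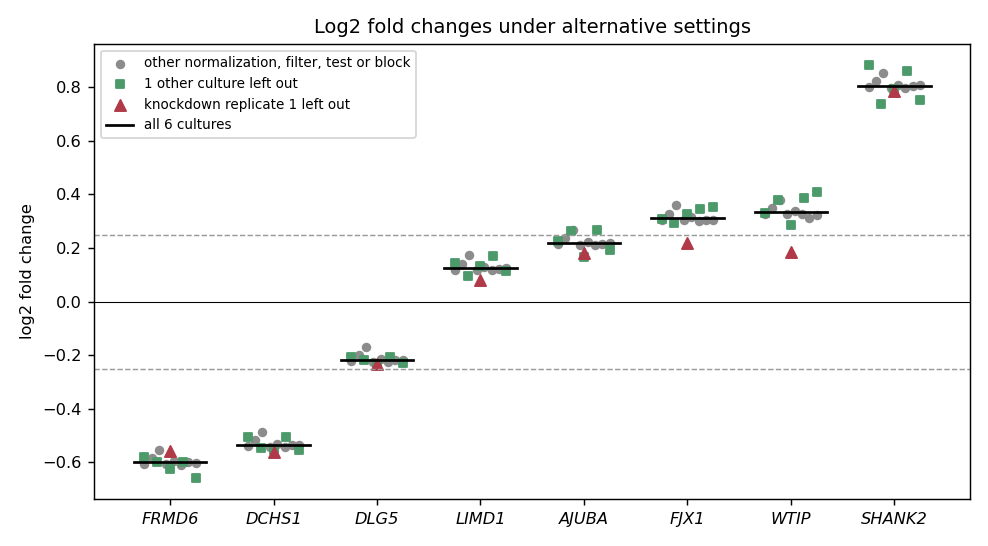
Log2 fold change of the 8 tested genes in the fit on all 6 libraries (black dash) and in 14 alternative fits. Grey circles are other normalizations, filters, tests or the replicate block, green squares leave out 1 other library and red triangles leave out replicate 1 of the knockdown, and dashed lines mark 0.25 on either side of 0. The triangles of FJX1 and WTIP lie under the threshold, at 0.22 and 0.18.

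Levels were compared between genes per kilobase of exon. In control cells DLG5 (27.8 ± 0.531 CPM per kilobase) and FJX1 (27.8 ± 0.662) overlapped at the top, followed by DCHS1 at 15.5. FRMD6 and AJUBA, at 6.63 ± 0.202 and 6.57 ± 0.454, also overlapped in control cells. LIMD1, WTIP, SHANK2 and FAT4 followed without overlap, at 3.80, 1.00, 0.332 and 0.00996 CPM per kilobase. In TAK1 knockdown cells FJX1 (34.5 ± 3.76) was above DLG5 (23.9 ± 0.485), and AJUBA (7.65 ± 0.478) was above FRMD6 (4.37 ± 0.283), in both cases with no overlap between libraries. The exon union and the longest transcript had 10500 and 7644 bases for DLG5, 9416 and 5123 for FRMD6, and 5885 and 4168 for AJUBA. For FJX1 both had 2406 bases. Levels by the longest transcript were not compared, so these orders and overlaps hold for the exon union only.

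The genes whose levels across the 6 libraries were most like SHANK2 were TOR3A, ATXN1 and TRIM25, with Pearson correlations of log2 CPM of 0.999, 0.998 and 0.997. For FRMD6 they were ORC1, LMAN1 and RHOA, at 0.999, 0.999 and 0.998. Of 13476 genes searched, 589 reached a correlation over 0.95 with SHANK2 and 1127 with FRMD6, and the 6 points share the split into control and knockdown libraries.

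Direct relatives of the members were examined next, whatever their values. FAT1, a large cadherin related to FAT4, had 289 ± 6.78 CPM in control and 318 ± 38.8 CPM in knockdown cells (log2 fold change 0.14, edgeR adjusted p = 0.0805), and FAT3 had a log2 fold change of -0.11 (edgeR adjusted p = 0.18). DCHS2 had no count in any library and SHANK1 at most 4. The LIM proteins ZYX, TRIP6 and LPP, which belong to the zyxin branch, had log2 fold changes of -0.14, -0.047 and -0.00028, and of these ZYX had an edgeR adjusted p of 0.0369. The polarity scaffolds DLG1 and SCRIB had values of -0.17 and 0.022, with edgeR adjusted p of 0.0124 and 0.797. SHANK3, a close relative of SHANK2, rose by 0.47 (edgeR adjusted p = 0.0142). NF2, which encodes Merlin, a FERM domain activator of the pathway like FRMD6, went in the other direction from FRMD6, from 66.6 ± 4.41 to 99.0 ± 0.389 CPM (log2 fold change 0.57, edgeR adjusted p = 1.13e-08). WWC1, which encodes the Merlin partner KIBRA, had a log2 fold change of 0.36 that did not pass the test (edgeR adjusted p = 0.0903).

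In a list of 36 other junction and polarity regulators, 30 were tested, of which 5 were upregulated and 2 downregulated, with a median log2 fold change of 0.011. These were 16.7% and 6.67% of those tested, against 11.8% and 11.3% of all genes tested, which had a median of 0.018. Beside NF2 and SHANK3, the kinases TAOK2 and TAOK3, which act on the MST and LATS kinases, rose by 0.35 and 0.33, and LLGL1, named after its value was seen, rose by 0.27. CTNNA1, the alpha-catenin of adherens junctions, and TAOK1 had values of -0.31 and -0.29. Of 18 kinases and effectors of the pathway, all of them tested, 7 were downregulated (38.9%, against 11.3% of all genes tested). None of the 18 was upregulated, and their median was -0.13. The lowest of these were AMOT, LATS2, MOB1B and WWTR1 (TAZ) at -0.74, -0.69, -0.52 and -0.48. Both lists were also chosen with earlier results of these data known, so these counts are not independent evidence of a change or of its direction.

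**Figure D4:**
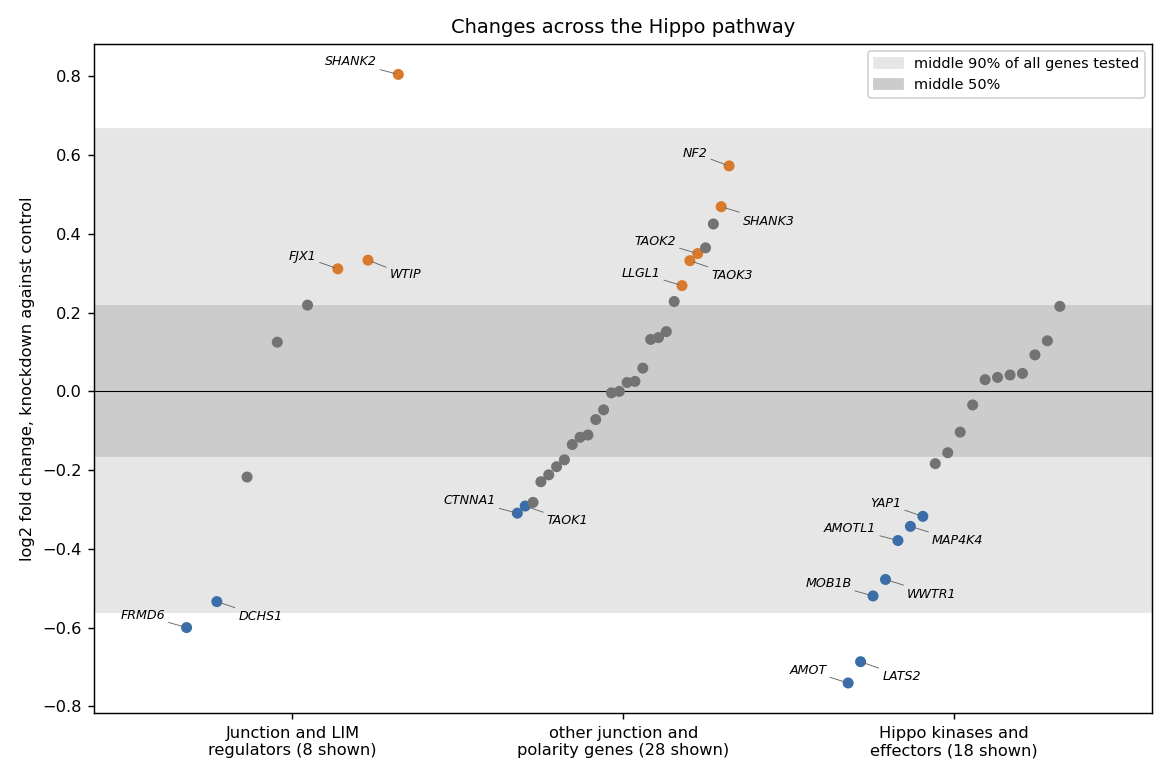
Log2 fold change of each tested gene with a mean of at least 1 CPM in 3 lists (8, 28 and 18 genes), sorted within the list, with orange for upregulated, blue for downregulated and grey for uncalled genes and shaded bands for the middle 90% and 50% of all genes tested. SHANK2 at 0.80 and FRMD6 at -0.60 lie outside the wider band, as do AMOT at -0.74 and LATS2 at -0.69.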

How the data were processed

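Poly(A) RNA-seq of 3 control and 3 TAK1 knockdown RD cultures was analysed. The authors filtered the reads, aligned them with STAR to GRCh38/hg38 and deposited raw counts per gene; the counting tool, gene annotation and strand setting are not given in the sources used here. No normalized values were used.

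Counts were tested with edgeR 4.0.16 in R 4.3.3 (quasi-likelihood test after TMM normalization and filterByExpr, with p-values adjusted by Benjamini-Hochberg across the 15935 genes tested), with no covariates. A call needed an adjusted p under 0.05 and a log2 fold change of at least 0.25 in size, the thresholds in the study's methods. The legend of the study's volcano plot gives 0.5 for the fold. Standard errors came from the log2 fold change and the F statistic. CPM used TMM library sizes. Depth was 28839898 to 34469323 counts and the common biological coefficient of variation was 5.67%. Ratios between members were tested by exact permutation over libraries. Alternatives were RLE, upper-quartile and library-size normalization, no filter or at least 10 counts in every library, DESeq2 1.42.0, limma voom (limma 3.58.1), fold thresholds of 0 and 0.5, a replicate block, a prior of 0.5 counts for the ratios, and leaving out each library. The fit was tested on simulated data.

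Exons came from GENCODE 44 (GRCh38), and levels per kilobase used the union of exons. Promoter windows of RefSeq (GRCh38.p14) were matched by symbol for 4 of the 9 genes (FRMD6, AJUBA, WTIP and FJX1). The 9 genes and all lists were chosen with earlier results of these data known. Named were all 9 genes, MAP3K7, from each list the 4 highest and the 4 lowest called genes, fixed relatives of the members, and the 3 genes most correlated with the members of highest and lowest log2 fold change among genes that averaged 1 CPM or more.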

Additional observations from a re-analysis of the deposited data

How the results depend on the processing

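Across the alternatives, the number of upregulated members was 3, except for 4 with library size alone, 4 with no fold threshold and 1 at a threshold of 0.5. Leaving out 1 library gave 1 to 4, the lowest without replicate 1 of the knockdown and 2 without replicate 3 of the control. The number of downregulated members was 2, and 3 with no fold threshold; leaving out 1 library gave 2 each time. With library size alone, 2376 genes were up and 1404 down (62.9% up), against 1879 and 1805 (51.0%) with TMM, and the median of all genes shifted by 0.048. The replicate block gave 3 members up and 2 down, and 1942 genes up and 1848 down; it changed no other call. Same-numbered libraries correlated in their deviations by 0.0255, 0.0311 and 0.0119, and the numbers were not taken as pairs. Replicates 1 and 2 of the control correlated best with the same-numbered knockdown library, and replicate 3 of the control with replicate 2 of the knockdown (0.0154). With the block the edgeR adjusted p of each tested member was lower, for example 6.13e-12 for DCHS1 and 0.00557 for WTIP. The paired permutation left the ratio differences at 0.096, 0.20 and -0.22.

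The DCHS1 to FAT4 ratio turned in direction without replicate 2 of the control (0.0996) and without replicate 1 or 3 of the knockdown (0.219 and 0.0646), and ranged from -0.94 to 0.22, since FAT4 had at most 9 reads per library. The AJUBA to LIMD1 difference ranged from 0.033 to 0.17 and that of WTIP to LIMD1 from 0.11 to 0.29. Depth limits what can be said of FAT4: without a filter its log2 fold change was -0.086 with an edgeR adjusted p of 0.970.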

Other observations

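The antisense genes with a row named after a member held at most 65 reads per library. No such row was found for DCHS1, whose exons share 820 bases with DCHS1-AS1, so reads of that antisense gene were not measured. FRMD6-AS1 had 24, 17 and 19 reads in control and 9, 21 and 17 reads in TAK1 knockdown libraries, with overlapping groups and a log2 fold change of -0.47 (edgeR adjusted p = 0.426). DLG5-AS1 had a mean of 1.71 ± 0.353 CPM in control and 1.87 ± 0.0943 CPM in knockdown cells (log2 fold change 0.12, edgeR adjusted p = 0.746). SHANK2-AS1 had at most 2 reads in any library, and FRMD6-AS2 and SHANK2-AS3 had none.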
